A study of Mus musculus with 2 samples.

Results

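The miR-26 family of the mouse consists of 3 microRNA (miRNA) genes, Mir26a-1, Mir26a-2 and Mir26b, out of 2202 miRNA genes in the count tables. The 3 genes were chosen by symbol, as the miRNA genes that lie inside the phosphatase genes Ctdspl, Ctdsp2 and Ctdsp1 in GENCODE M21, a rule that uses no measured value, although it was set with earlier results of these data known. Small RNA (size range under 30 bases, per the labels) was sequenced from hippocampus of wild-type C57BL/6 mouse, strain B6NCrl, aged 6 months, with no treatment named and MODEL-AD given as the source. The labels call the animal male in one field and give its sex as not collected in another, and speak of a layer of the hippocampus without naming it. The libraries formed 1 group of 2, numbered as biological replicates 1 and 2. They carry separate biosample identifiers and the same donor identifier, and nothing states that they came from different animals. No p-value here measures variation between animals. The binomial p-values compare 2 libraries' reads and allow for counting error alone, and a difference between the libraries may be technical.

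Ctdsp1, Ctdsp2 and Ctdspl encode small phosphatases that act on the C-terminal domain of RNA polymerase II. The transcription factor REST recruits them to silence neuronal genes in cells that are not neurons. The miR-26 miRNAs are processed from introns of these genes, rise during neuronal differentiation, and in zebrafish miR-26b was reported to repress the ctdsp2 transcript from whose gene it is made. A mature miRNA pairs with messenger RNAs mainly through its seed, bases 2 to 8, so miRNAs with one seed have overlapping sets of possible targets.

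The mature sequences are shown because they decide which reads can be told apart. They are from RefSeq (GRCm38.p6), which held all 3 genes, and are written 5′ to 3′ with the seed in capitals.
miR-26a-5p of Mir26a-1 and Mir26a-2: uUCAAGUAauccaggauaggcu
miR-26b-5p of Mir26b: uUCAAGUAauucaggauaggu
miR-26a-1-3p: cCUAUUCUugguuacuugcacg
miR-26a-2-3p: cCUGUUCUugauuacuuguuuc
miR-26b-3p: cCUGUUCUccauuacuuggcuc
All 3 genes shared the 5p seed, UCAAGUA. It stood in 3 of the 1738 mature entries of the RefSeq mouse table, and those were the 5p arms of these 3 genes. The 5p arm of Mir26a-1 and that of Mir26a-2 were identical over 22 bases. Counting from 1 at the 5′ end, miR-26b-5p differed from miR-26a-5p by C11U and C21U over the 21 bases compared, both outside the seed. The 3p arms were less alike. Between miR-26a-1-3p and miR-26a-2-3p 6 of 22 bases differed (A4G, G11A, C19U, A20U, C21U and G22C), 1 of them in the seed, and between miR-26a-2-3p and miR-26b-3p 4 bases differed (U9C, G10C, U19G and U20C), none in the seed.

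The hairpins show how far the identity between the 2 miR-26a genes reaches. In the sequences, written 5′ to 3′, both mature arms are in capitals.
Mir26a-1: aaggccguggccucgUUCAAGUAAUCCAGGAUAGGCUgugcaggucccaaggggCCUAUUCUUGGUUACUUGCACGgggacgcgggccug
Mir26a-2: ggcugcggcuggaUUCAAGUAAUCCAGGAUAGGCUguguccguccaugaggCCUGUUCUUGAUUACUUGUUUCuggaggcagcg
Mir26b: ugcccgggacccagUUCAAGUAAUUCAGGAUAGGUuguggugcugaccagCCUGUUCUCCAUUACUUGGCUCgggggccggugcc
The longest stretch common to Mir26a-1 and Mir26a-2 was 25 bases long and held the whole 5p arm, from base 16 to base 40 of the Mir26a-1 hairpin and from base 14 to base 38 of the Mir26a-2 hairpin. A read lying wholly inside that stretch matches both genes exactly, and reads placed at more than 1 position entered no gene's count. Their counts therefore rest on reads that reach outside the stretch or come from the 3p arm. Mir26b had no such overlap: the longest stretch it shared with Mir26a-1 was 11 bases, and none of its 68 windows of 18 bases stood in another transcript of GENCODE M21. Of the windows of 22 bases, 4 of 69 in Mir26a-1 and 4 of 63 in Mir26a-2 were found in the other gene. Introns and intergenic sequence were not searched for further copies.

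**Figure D1:**
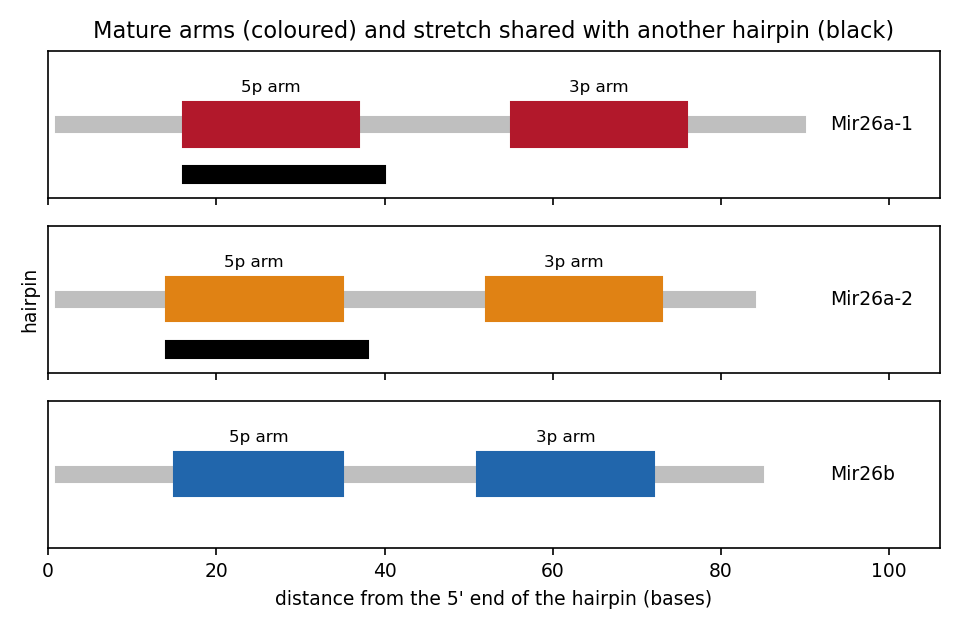
Position of the mature arms (coloured) along each hairpin (grey), in bases from its 5′ end, with the stretch shared with another hairpin in black. The black bar covers the 5p arm of Mir26a-1 (bases 16 to 40) and of Mir26a-2 (bases 14 to 38), leaves their 3p arms free, and is missing from Mir26b.

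Each gene lay in an intron of its host, on the strand of the host (mm10). Mir26a-1 (ENSMUSG00000065513.1, chromosome 9, 119031796 to 119031885) lay in intron 5 of 7 of Ctdspl, 1543 bases after the start of an intron of 3283 bases. Mir26a-2 (ENSMUSG00000065430.1, chromosome 10, 126995530 to 126995613) also lay in intron 5 of 7, of Ctdsp2, in an intron of 1946 bases and 241 bases before its end. Mir26b (ENSMUSG00000065468.1, chromosome 1, 74394310 to 74394394) lay in intron 4 of 6 of Ctdsp1, in the shortest of the 3 introns (564 bases). Apart from its host, no gene was annotated over any of the hairpins on either strand, and no read was counted on the opposite strand of any of the 3 genes in either library. The host transcripts were not measured in these small RNA libraries.

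Both libraries were of similar depth. Replicate 1 held 11106392 reads, of which 4247092 were counted on miRNA genes, and replicate 2 held 12627039 reads, of which 5041568 were. Reads aligned to more than 1 place made up 43.8% and 45.7% of the reads. Levels are given in CPM, a gene's count of reads aligned to 1 place, scaled to a common total over all miRNA genes so that each library sums to 1e6 CPM. For a gene with 0 counts, an expected count of up to 3 was allowed for. This is 0.706 CPM in the library of replicate 1 and 0.595 CPM in that of replicate 2. Intervals are exact 95% binomial (Clopper-Pearson) intervals and cover counting error only. As markers of the tissue, 8 neuron-enriched genes summed to 169056 ± 2585 CPM (SD, n = 2), most of it on Mir139, while the 3 miR-124 genes among them, which also share a mature sequence, held at most 8 counts each per library. A lower level in bulk tissue can mean fewer cells that make a miRNA or less of it per cell, and these cannot be told apart.

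Mir26b carried nearly all of the counted family signal. It had 30909 counts in replicate 1 and 32191 in replicate 2, which are 7278 and 6385 CPM (6831 ± 631 CPM; SD, n = 2). It ranked 28th of 2202 genes by mean CPM, 25th in replicate 1 and 34th in replicate 2. Its neighbours in that order were Mir151 (7335 ± 219 CPM) and Mir382 (7006 ± 411 CPM) above it and Mir433 (6774 ± 902 CPM) and Mir92b (6657 ± 2110 CPM) below it, and all 4 means lay within 1 SD of Mir26b from its mean.

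Mir26a-1 had 622 counts in replicate 1 and 19 in replicate 2, which are 146 and 3.77 CPM (75.1 ± 101 CPM; SD, n = 2). Both counts are above 3, and the SD exceeded the mean. By level it ranked 175th in replicate 1 and 402nd in replicate 2. The genes next to it by mean CPM were Mir493 (77.0 ± 7.03 CPM), Mir539 (76.2 ± 11.5 CPM), Mir1198 (74.5 ± 10.8 CPM) and Mir7044 (73.9 ± 1.33 CPM). These 4 genes had nearly the same mean as Mir26a-1 with SDs of 1.33 to 11.5 CPM, against 101 CPM for Mir26a-1.

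Mir26a-2 had 477 counts in replicate 1 and 285 in replicate 2, which are 112 and 56.5 CPM (84.4 ± 39.4 CPM; SD, n = 2). It ranked 191st and 225th in the libraries. The genes next to it by mean CPM were Mir325 (87.2 ± 1.48 CPM), Mir27a (86.7 ± 22.2 CPM), Mir3093 (83.8 ± 29.0 CPM) and Mir3068 (83.4 ± 11.3 CPM). All 4 means lay within 1 SD of Mir26a-2 from its mean.

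**Figure D2:**
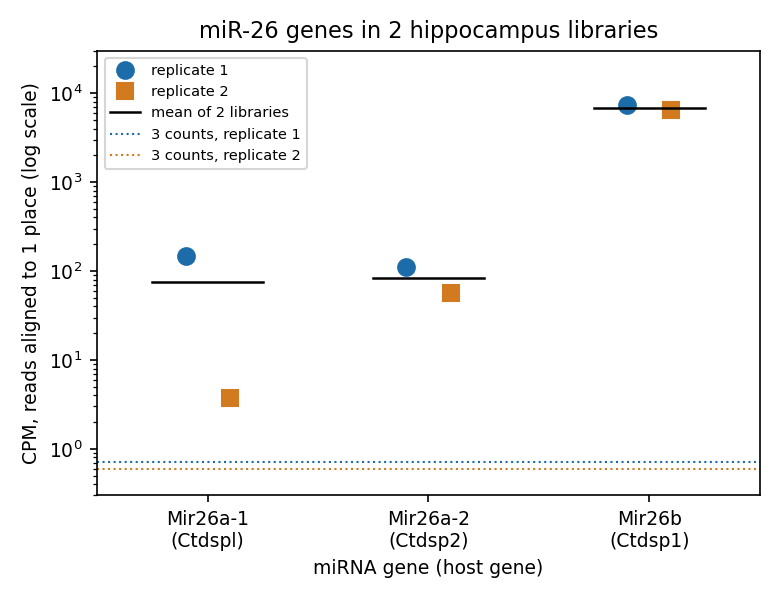
CPM (log scale) of the 3 miR-26 genes, each with its host gene, in replicate 1 (circles) and replicate 2 (squares), with the mean of both as a bar and the level of 3 counts as dotted lines. The Mir26b points lie close together at 7278 and 6385 CPM, the Mir26a-2 points at 112 and 56.5 CPM, and the Mir26a-1 points far apart at 146 and 3.77 CPM.

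The order of the counted levels within the family was Mir26b, then Mir26a-1, then Mir26a-2 in replicate 1, and Mir26b, then Mir26a-2, then Mir26a-1 in replicate 2. Mir26b had 64.8 times the counts of Mir26a-2 in replicate 1 (95% interval 59.2 to 71.1), and in replicate 2 the ratio was 113 (101 to 127). Per base of hairpin these ratios were 64.0 and 112. Against Mir26a-1, Mir26b had 49.7 times the counts in replicate 1 (45.9 to 53.9), and in replicate 2 the ratio was 1694 (1085 to 2814), or 52.6 and 1794 times per base of hairpin. The 2 miR-26a genes were not separated from each other beyond their spread by their means of 75.1 and 84.4 CPM. These ratios compare reads aligned to 1 place, and the 5p reads of the miR-26a genes that lie in the shared stretch are missing from one side of them, so they are not ratios of miR-26b to miR-26a in the tissue.

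Together the 3 genes held 32008 and 32495 counts, or 6991 ± 771 CPM (SD, n = 2), which is 0.699% ± 0.0771 of the counts on miRNA genes. Mir26b made up 96.6% of the family's counts in replicate 1 (95% interval 96.4 to 96.8%), while its part in replicate 2 was 99.1% (98.95 to 99.17%). Mir26a-2 made up 1.49% (1.36 to 1.63%) and 0.877% (0.779 to 0.984%), and Mir26a-1 made up 1.94% (1.79 to 2.10%) and 0.0585% (0.0352 to 0.0913%). For each family count there were 152 reads in replicate 1 and 177 in replicate 2 that aligned to more than 1 place, and how many of those were miR-26a reads was not analysed here.

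The libraries were then compared gene by gene, to see whether the family's genes varied together. Each gene's count in replicate 2 was tested within its sum over both libraries by an exact two-sided binomial test, with Benjamini-Hochberg adjustment over the 522 genes whose summed count reached 10. This test allows for counting error alone and compares 2 libraries, not conditions. It called 51.0% of the 522 genes at an adjusted p under 0.05, and 22.8% as lower in replicate 2. All 3 miR-26 genes were lower in replicate 2 and passed, by amounts that differed widely.

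Mir26b was lower in replicate 2 by 1.14 times (log2 ratio −0.19, exact 95% interval −0.21 to −0.17; adjusted p = 1.10e-59, exact binomial test). Its ratio was the 196th largest in size among the 276 genes whose mean count reached 100. The genes with the ratio most like it, over 2 libraries, were Mir181b-2, Mir493, Mir30a and Mir467c, of which Mir467c, the farthest, lay 0.00572 from it on the log2 scale. Mir181b-2 stood at 1799 and 1578 CPM, and Mir30a at 4253 and 3740 CPM.

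Mir26a-2 was lower in replicate 2 by 1.99 times (log2 ratio −0.99, −1.21 to −0.78; adjusted p = 4.95e-20, exact binomial test), the 30th largest ratio of the 276 in size. Of those 276 genes, 10.5% lay over 2-fold apart, and Mir26a-2 lay just inside that bound. With TMM or DESeq2 size factors as the scaling, its log2 ratio was −1.06 and −1.07, just outside the bound. The genes with the most similar ratio were Mir221 (13121 and 6552 CPM in replicates 1 and 2), Mir21a (774 and 401 CPM), Mir411 (6476 and 3421 CPM) and Mir129-1 (712 and 340 CPM), which lay 0.0125, 0.0414, 0.0687 and 0.0768 from it on the log2 scale.

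Mir26a-1 was lower in replicate 2 by 37.9 times (log2 ratio −5.24, −6.02 to −4.62; adjusted p = 7.53e-180, exact binomial test). No other gene of the 276 had a ratio of this size in either direction. Among those 276, the 4 genes nearest to it were Mir1298, Mir34c, Mir222 and Mir34b, with log2 ratios of −3.03, −2.73, −2.09 and −1.80, so none of them was close to it. Among the genes of lower count, Mir201 had 10 counts in replicate 1 and 0 in replicate 2, and Mir1912 had 10 and 1, too few to give their ratios closely. The interval of Mir26a-1 overlapped neither that of Mir26a-2 nor that of Mir26b.

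A test with a wider allowance for spread was set beside the binomial one. It compares 1 library with 1 library, and its spread is taken from the same 2 libraries, so it has no replication on either side and does not measure whether a difference exceeds that between replicates. In edgeR's exactTest, with the spread between replicates estimated from both libraries as 1 group (biological coefficient of variation 0.330 over 422 genes), 6 of the 522 genes (1.15%) had an adjusted p under 0.05. Mir26a-1 was one of the 6 and had the lowest adjusted p (3.65e-07; the other settings, which kept the binomial test, gave 1.70e-187 to 9.56e-174). Mir26a-2 and Mir26b did not pass, each with an adjusted p of 1. The other genes that passed were Mir301, Mir1298, Mir3547, Mir34c and Mir9-3, and are named because they are so few, after their values were seen. Mir301 had 5 counts in replicate 1 and 156 in replicate 2, a difference in the opposite direction to that of Mir26a-1.

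**Figure D3:**
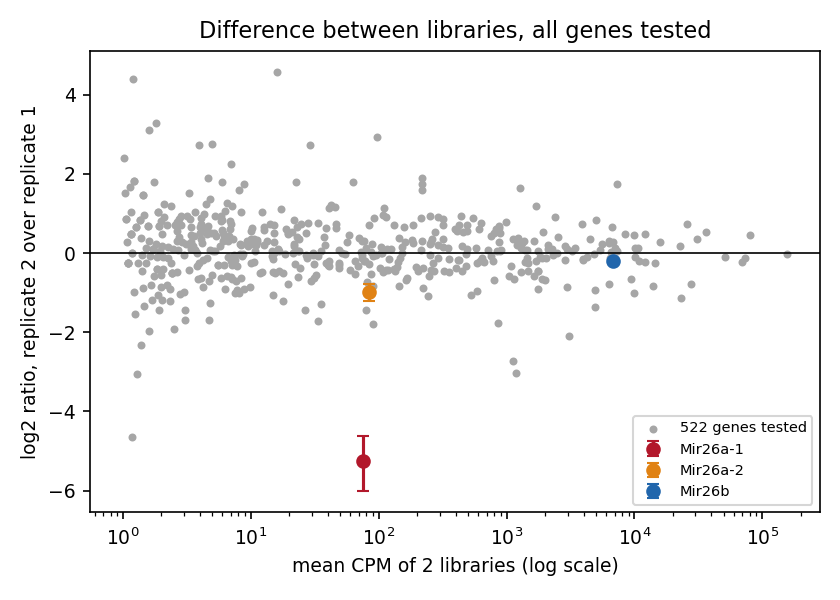
Log2 ratio of replicate 2 over replicate 1 against mean CPM (log scale) for the 522 genes tested, with the 3 miR-26 genes in colour and exact 95% intervals as bars. Mir26b lies near 0, Mir26a-2 near −1, and Mir26a-1, at −5.24, lies below all other points.

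The family sum followed Mir26b. It was 7536 CPM in replicate 1, against 6445 CPM in replicate 2 (log2 ratio −0.23, −0.25 to −0.20). The sum of the 2 miR-26a genes stood at 259 and 60.3 CPM (log2 ratio −2.10, −2.29 to −1.92). Most of the difference between their summed counts of 1099 and 304 lay in Mir26a-1, which gave 622 of the 1099 and 19 of the 304.

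Within the miR-26a pair, Mir26a-1 held 56.6% of the counts in replicate 1 (95% interval 53.6 to 59.6%), whereas its share in replicate 2 was 6.25% (3.80 to 9.59%), a change of 50.3 percentage points. For comparison, the same share was taken in 20 other pairs of loci with at least 10 counts in each library. They were listed as pairs that encode the same mature miRNA. Like the miR-26a pair, they have hairpins with a long common stretch, of 22 to 28 bases over all 21 pairs. Of the 20 pairs that could be matched to RefSeq at both loci, miR-26a included, 19 had exactly 1 mature sequence in common in that table. Mirlet7a-1 and Mirlet7a-2 had none in common there, and the pair of Mir125b-1 and Mir125b-2 could not be matched. In the 20 other pairs the share of the first locus changed by 0 to 19.7 percentage points, with a median of 1.48, and in 18 of them by less than 10. A share near either end of the scale can change little in points. Mir219a-1, for example, held 0.310% and 0.151% of its pair, although the ratio of its loci changed by 1.05 on the log2 scale.

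The pairs closest to miR-26a in that respect were Mir125b-1 and Mir125b-2, where the share of Mir125b-1 was 34.1% in replicate 1 and 53.8% in replicate 2, and Mir129-1 and Mir129-2, where the share of Mir129-1 was 22.3% in replicate 1 and lower by 10.3 percentage points in replicate 2. The neuronal pair Mir128-1 and Mir128-2 had shares of 81.7% in both libraries, and Mir138-1 held 53.0% and 52.2% of its pair. On the log2 scale, the ratio of Mir26a-1 to Mir26a-2 changed by 4.25, and among the other pairs with counts on both loci the largest change was 1.23 (Mir181a-1 and Mir181a-2) and the median was 0.29. Mir194-1 had no count in either library, so its pair gave no ratio.

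**Figure D4:**
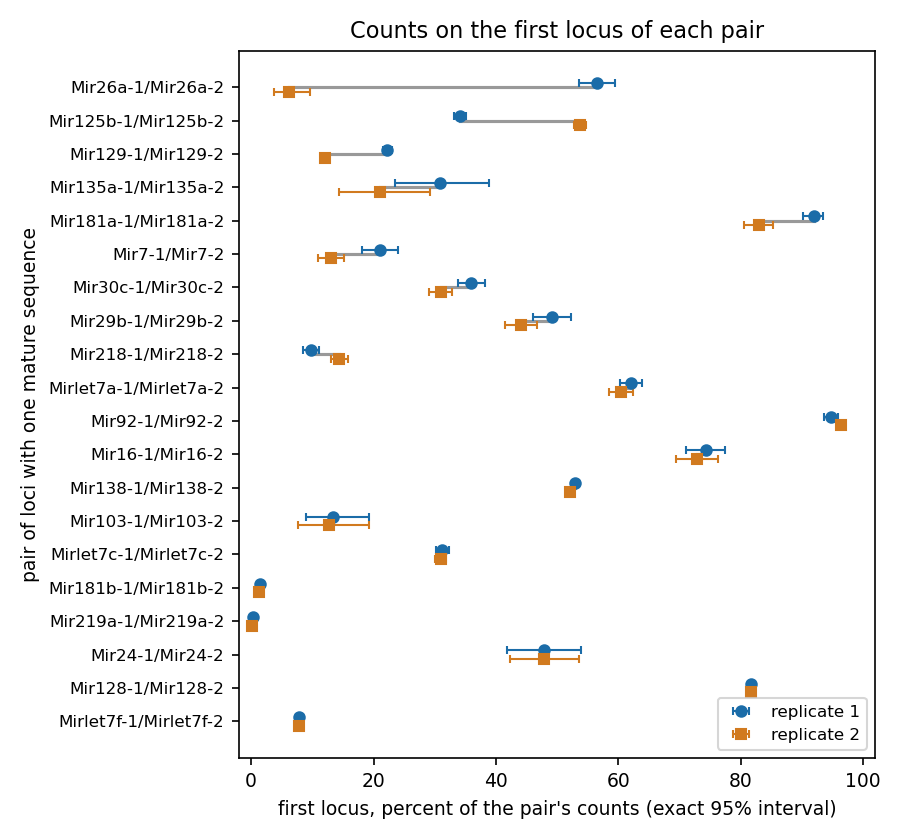
Share of the first locus in the counts of each of the 20 pairs with counts on both loci, miR-26a included, in replicate 1 (circles) and replicate 2 (squares), with exact 95% intervals. In most pairs the points lie together, and the miR-26a pair moves from 56.6% to 6.25%.

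Marker miRNAs of other cell types, in lists chosen with earlier results of these data known, were read beside the lower counts of Mir26a-1 in replicate 2. The calls in each list stand against 51.0% of all genes tested that were called and 22.8% that were called lower. The choroid plexus and ependyma list held 11342 CPM in replicate 1, against 3408 CPM in replicate 2. Of its 6 genes, 4 were called lower in replicate 2 (Mir204, Mir34b, Mir34c and Mir1298), Mir449a was called higher and Mir211 was not called, with a median log2 ratio of −1.57 beside 0.09 over all genes tested. Mir204 is abundant in choroid plexus epithelium and Mir34c in ciliated cells. The part of this list in the difference of Mir26a-1 was not tested. The oligodendrocyte list (Mir219a-2 and Mir338) summed to 5805 and 8777 CPM, both genes higher in replicate 2. The microglia and leukocyte list summed to 2918 and 2620 CPM (3 of 4 lower), the vascular list to 8456 and 8769 CPM (2 of 3 lower, 1 higher) and the erythroid list to 18.8 and 23.8 CPM (neither of 2 tested genes called, and Mir144 at 0 in replicate 1). The labels also cite version 5 of the adapter trimming protocol for replicate 1 and version 6 for replicate 2, and an effect of that version cannot be told apart from the difference between the libraries.

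The miRNA genes that REST represses form the other arm of the pathway of the host genes. Their list was also chosen with earlier results of these data known. Of 8 such genes, 7 had at least 10 counts, of which 2 were called lower in replicate 2, 1 was called higher and 4 were not called, with a median log2 ratio of −0.25 beside 0.09 over all genes tested. Over all genes tested 51.0% were called and 22.8% were called lower, so these counts are near the background, and the median is that of Mir124a-3, with 5 counts in each library. The lower ones were the neighbours Mir132, an activity-regulated neuronal miRNA gene (log2 ratio −1.13), and Mir212 (−0.67). Mir9-3 was higher (2.74), while Mir9-1 stood at 113 and 121 CPM and Mir9-2 had 10 and 8 counts. The miR-9 and miR-124 genes also share mature sequences between loci, so their counts lack reads in the same way as those of the miR-26a genes.

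The 3′ UTRs of the host genes and of Rest were searched for matches to the miR-26 seed, to see whether the hosts carry possible sites for the miRNAs made from them. The words searched were TACTTGA, which pairs with bases 2 to 8, and ACTTGAA, which pairs with bases 2 to 7 and has A opposite base 1; together they overlap as TACTTGAA. One principal transcript per gene was used. Ctdsp2, the host of Mir26a-2, held 1 of each word in its 3′ UTR of 3483 bases, at bases 1080 and 3395. Rest held TACTTGAA at base 349 and ACTTGAA alone at base 2525 of 3448 bases. Neither word was found in the 3′ UTR of Ctdspl (3349 bases) or Ctdsp1 (1701 bases), and neither was found on the opposite strand of the 4 UTRs. Each site is shown in a window of 29 bases that begins 11 bases before the match, with the match in capitals.
Ctdsp2, base 1080: agtgttgctctTACTTGAtttgccaaatg
Ctdsp2, base 3395: tgtattcaaaaACTTGAActgtaggatgc
Rest, base 349: gcttagtaaatTACTTGAAgaatttgcct
Rest, base 2525: actagtggtaaACTTGAAatggtagcatt
Such matches are common. For comparison, genes with a 3′ UTR close in length were taken (the shorter of the 2 at least 0.8 times as long as the longer). Among 1814 such genes for Ctdsp2, 23.2% held TACTTGA and 32.2% held ACTTGAA. Among 1844 such genes for Rest, 22.7% held TACTTGA, 32.0% held ACTTGAA and 10.4% held TACTTGAA. Among genes with UTRs as long as those of Ctdspl and Ctdsp1, 22.7% and 11.5% held TACTTGA. A match describes the sequence and does not show that miR-26 binds it.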

How the data were processed

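The authors deposited 1 table of raw counts per library, with 1 row per miRNA gene and no normalisation. Per the file headers, in the readme text deposited with each table, they refer to mm10 and GENCODE M21. The names of aligner and counter were not given in the sources used here. Of the 3 count columns, column 3 (strand of the gene) was used, and the 4 summary rows stayed out of library totals. All 2202 genes matched M21, from which positions and transcript sequences were taken. The members and lists were chosen with earlier results of these data known.

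CPM was computed over counts on gene rows. The quasi-likelihood test needs replicated groups, so counts were compared with an exact binomial test (sum of at least 10 counts, log2 ratios with 0.5 added), tested on simulated data. The simulated counts held counting error only, so they do not show how the test behaves with further spread between libraries. Named genes are the members, 2 genes above and below each by mean CPM, the 4 nearest in log2 ratio whose mean count reached 100, and the lists. Alternatives were TMM, DESeq2 size factors, other library totals, the unstranded column, other minimum sums, a pseudocount of 1, each library alone, and edgeR's exactTest. Reads aligned to more than 1 place stand only in a summary row and belong to no gene's count. Tools were Python 3.11.15, numpy 2.4.6, scipy 1.17.1, matplotlib 3.10.9, R 4.3.3, edgeR 4.0.16 and DESeq2 1.42.0.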

Additional observations from a re-analysis of the deposited data

How the results depend on the processing

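Of 75 recomputed values, 64 stayed on the same side of the threshold or within the spread, 8 moved and 3 lost the call. The 64 include values whose outcome was fixed in advance. A level or share from 1 library alone always counted as within the spread, since each of 2 values lies less than 1 SD from their mean. The shares in the unstranded column could not change either, as no read lay on the opposite strand of these genes. For a given gene, a pseudocount of 1 does not enter the binomial p-value, and other minimum sums change only its adjustment. Such values do not show stability. With all reads as the library total, the mean level was 28.8 CPM for Mir26a-1, 32.8 CPM for Mir26a-2, 2666 CPM for Mir26b and 2728 CPM for the family. Of these, only the level of Mir26a-1 counted as within the spread. It did so because its SD was 101 CPM, around a main mean of 75.1 CPM, and not because it was stable. Without Mir139 in the total, Mir26b stood at 8085 CPM and the family at 8274 CPM. The log2 ratio of the family sum was −0.16 with all reads, −0.298 with TMM and −0.302 with DESeq2 size factors. With edgeR's exactTest, which allows for more spread, Mir26a-2 (log2 ratio −0.99) and Mir26b (−0.19) were no longer called, and 6 genes were called in place of 266. Under the alternatives run, the log2 ratio of Mir26a-1 ranged from −5.32 to −5.18 and that of Mir26b from −0.26 to −0.13. That of Mir26a-2 ranged from −1.07 to −0.93, on both sides of a 2-fold difference. The mean level of Mir26a-1 rests on replicate 1: it was 146 CPM from replicate 1 alone and 3.77 CPM from replicate 2 alone. No paired analysis was possible because the libraries form 1 group. With 19 counts in replicate 2, depth leaves the log2 ratio of Mir26a-1 known only to between −6.02 and −4.62, and the counts of both miR-26a genes lack reads aligned to more than 1 place.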
